A study of Mus musculus with 10 samples.

Results

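At E17.5, 1507 of 20045 gene symbols (7.52%) carried both H3K4me2 and H3K27me3 around the transcription start site (TSS) in mouse retina. A gene was counted as marked when its normalised occupancy reached 36.48, which is 4 times the mean anti-GFP background of 9.12, in the column of that mark, and genes were thus divided into those with both marks, those with 1 mark and those with neither. For the remainder, H3K4me2 alone was found at 9324 genes (46.5%), H3K27me3 alone at 1702 genes (8.49%) and neither mark at 7512 genes (37.5%). These classes are a description of 1 library for each mark, so no p-value can be given for them. In whole retina, both marks on 1 allele and either mark in different cells cannot be told apart, and neither can fewer cells with a mark and less of the mark per cell.

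H3K4me2, dimethylation of lysine 4 of histone H3, is found around promoters that are active or held ready for transcription. H3K27me3, trimethylation of lysine 27, is deposited by the Polycomb repressive complex and marks silenced genes, and the co-occurrence of both kinds of mark is well known at developmental regulator genes of stem and progenitor cells, where it is called bivalent or poised chromatin. At late embryonic stages the retina holds dividing progenitors, newly formed ganglion, amacrine and horizontal cells and cones, whereas most rods, bipolar cells and Mueller glia form around and after birth.

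Chromatin from whole retinas was immunoprecipitated for either mark and sequenced (ChIP-Seq), with 1 library per mark at E17.5 and at postnatal days PN1, PN7 and PN15. At least 20 retinas were pooled, so an occupancy is an average over all cells. In the labels the embryonic samples are called E17 and every library is given the Pde6b rd1/rd1 mutant strain. The study names this stage both E17 and E17.5, and it gives wild type C57BL/6j mice, with rd1/rd1 mice as a control. The catalogue numbers of both antibodies are exchanged between the labels and the methods of the study. The columns ran as their names say, with all 39 Hox genes between 464 and 809 for H3K27me3 and 32 or less for H3K4me2, and 74 of 81 ribosomal protein genes with H3K4me2 alone. The strain cannot be read from these values. The H3K4me2 library of rd1 retinas and the anti-GFP library, which is labelled PN56, were not analysed here. The anti-GFP mean of 9.12 is the value given in the study.

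The values are reads within 2.5 kb of the TSS scaled to all mapped reads and rounded to whole numbers, so the depth of each library is unknown. The smallest whole number that no entry held was 140 for H3K4me2 and 347 for H3K27me3, so that 1 unit stood for about 1 read or more. Taking 1 unit as 1 read gives the widest counting error, and intervals below are exact Poisson 95% intervals of this kind that cover counting error only. By this measure a value of 50 or more lay clear above the occupancy value and a value of 24 or less clear below it. Of the genes with both marks, 712 (47.2%) were clear above it in both columns, and of the 11026 genes with 1 mark, 9789 (88.8%) were clear below it in the column of the other mark. The smallest whole value inside was 37 and the largest outside was 36. The smaller of both values was 37 at 90 genes with both marks, and 106 genes with 1 mark had the other at 36.

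In 3 blocks of entries the E17.5 H3K4me2 values did not follow the symbols. The blocks run from H2-Aa to H2afz (53 entries), over Nup62-il4i1 and Nup62cl (2 entries) and over 8 entries of zinc finger genes, and their E17.5 H3K4me2 values stand in the order that the symbols take when hyphens are ignored. In the first block the mean deviation of the log2 value from that at PN1 was 1.86 as deposited and 0.60 with the values moved to that order, whereas the same move raised the deviation of E17.5 H3K27me3 from 0.37 to 2.90. Moving the values changed the class of 25 genes and gave 1501 genes with both marks, and leaving out the 53 symbols concerned gave 1498. Among the genes listed with both marks, H2-Bl, H2-DMa, H2-DMb1, H2-DMb2, H2-Ea, H2-K1, H2-M5, H2-gs10 and Nup62cl had H3K27me3 alone after the move. Conversely, H2-Ab1, H2-Q6 and H2-T23 had both marks only after it. The values below are as deposited unless stated otherwise, and no retinal gene list contains a gene of these blocks.

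All 18 genes of the retinal progenitor list carried H3K4me2, between 79 and 142. Among them, Rax, Pax6, Six3 and Six6, which act in the eye field and in progenitors, all had H3K4me2 alone, with H3K4me2 values of 105, 137, 116 and 133 and H3K27me3 values of 17, 4, 3 and 3. Otx2, which directs photoreceptor and bipolar cell formation, had both marks (73 for H3K4me2 and 212 for H3K27me3), and Crx, its target in photoreceptor precursors, had neither (20 and 8). Lists of other cell types differed in their marks. Neither mark, found at 37.5% of all symbols, was seen at 10 of 11 microglia and blood genes, 15 of 18 lens genes, 10 of 14 pigment epithelium genes, 4 of 7 astrocyte genes, 6 of 12 endothelial genes and 5 of 10 erythroid genes. Of 11 microglia and blood genes none had H3K4me2 above 9, and of 18 lens genes none had it above 28, whereas H3K4me2 reached 48 in the erythroid, 57 in the pigment epithelium, 77 in the astrocyte and 112 in the endothelial list. Both marks were found at Pax2 and Slc1a2 of the astrocyte list (28.6%, against 7.52% of all symbols), Cldn5 and Flt1 of the endothelial list (16.7%), Epor of the erythroid list and Lrat of the pigment epithelium list (7.14%). The part of these cells in the class with both marks was not tested.

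Bases upstream of the TSS are shown for 5 genes because the classes differed in their CpG content, which is described after the gene lists. Each stretch is 250 bases of mm9 in the direction of transcription, ends at the base before the annotated TSS and has every CG dinucleotide in capitals. Dlx2 and Neurod1 had both marks at E17.5, Ldb1 had H3K4me2 alone, Hoxc9 had H3K27me3 alone and Rcvrn had neither.
Dlx2 (chr2:71384812-71385061, minus strand): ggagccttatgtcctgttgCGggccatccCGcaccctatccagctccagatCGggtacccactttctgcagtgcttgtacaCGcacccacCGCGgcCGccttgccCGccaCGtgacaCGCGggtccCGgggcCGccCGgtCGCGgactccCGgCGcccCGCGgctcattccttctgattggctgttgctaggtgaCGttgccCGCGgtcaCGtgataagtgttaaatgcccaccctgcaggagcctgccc
Neurod1 (chr2:79296909-79297158, minus strand): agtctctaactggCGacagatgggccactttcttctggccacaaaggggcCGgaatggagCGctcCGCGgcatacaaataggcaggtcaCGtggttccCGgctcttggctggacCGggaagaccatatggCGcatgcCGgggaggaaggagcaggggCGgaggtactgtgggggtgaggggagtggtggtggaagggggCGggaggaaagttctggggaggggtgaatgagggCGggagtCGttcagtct
Ldb1 (chr19:46119705-46119954, minus strand): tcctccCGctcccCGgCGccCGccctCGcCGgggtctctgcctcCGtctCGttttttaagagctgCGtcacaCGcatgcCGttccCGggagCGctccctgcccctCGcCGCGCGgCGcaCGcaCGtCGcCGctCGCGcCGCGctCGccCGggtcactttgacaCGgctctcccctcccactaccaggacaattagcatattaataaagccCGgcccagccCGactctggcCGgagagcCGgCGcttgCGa
Hoxc9 (chr15:102806620-102806869, plus strand): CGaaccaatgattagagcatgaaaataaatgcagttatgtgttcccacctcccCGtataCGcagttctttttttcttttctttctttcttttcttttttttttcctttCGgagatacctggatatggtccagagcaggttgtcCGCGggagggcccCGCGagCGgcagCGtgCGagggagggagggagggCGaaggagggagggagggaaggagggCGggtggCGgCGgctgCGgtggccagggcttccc
Rcvrn (chr11:67508578-67508827, plus strand): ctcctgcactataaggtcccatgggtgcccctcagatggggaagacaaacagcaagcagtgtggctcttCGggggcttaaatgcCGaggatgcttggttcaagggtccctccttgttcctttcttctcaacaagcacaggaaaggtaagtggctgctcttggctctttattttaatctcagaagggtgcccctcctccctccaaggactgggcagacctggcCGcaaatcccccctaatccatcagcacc
The stretches hold 24 and 14 CG dinucleotides for Dlx2 and Neurod1, 35 for Ldb1, 16 for Hoxc9 and 3 for Rcvrn.

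Of 20045 symbols, 10831 had H3K4me2 and 3209 had H3K27me3 at E17.5, so the shared genes are unequal parts of both sets. Of the genes with H3K4me2, 13.9% also had H3K27me3, and of the genes with H3K27me3, 47.0% also had H3K4me2. H3K27me3 was found at 18.5% of the genes without H3K4me2. It was thus not more frequent at genes with H3K4me2 than at genes without it. Genes with both marks had a median H3K4me2 of 53 (quartiles 44 and 69) against 64 (52 and 79) for genes with H3K4me2 alone, and a median H3K27me3 of 90 (54 and 186) against 112 (58 and 248) for genes with H3K27me3 alone. Both distributions overlapped widely. Within the 1507 genes the rank correlation of the marks was -0.10, a description across genes of 1 pair of libraries. These genes were chosen by a lower bound on the same 2 columns, which shapes this value, so no conclusion is drawn from it. The marks were scaled to their own libraries, and equal values of both marks need not mean equal amounts of them.

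**Figure D1:**
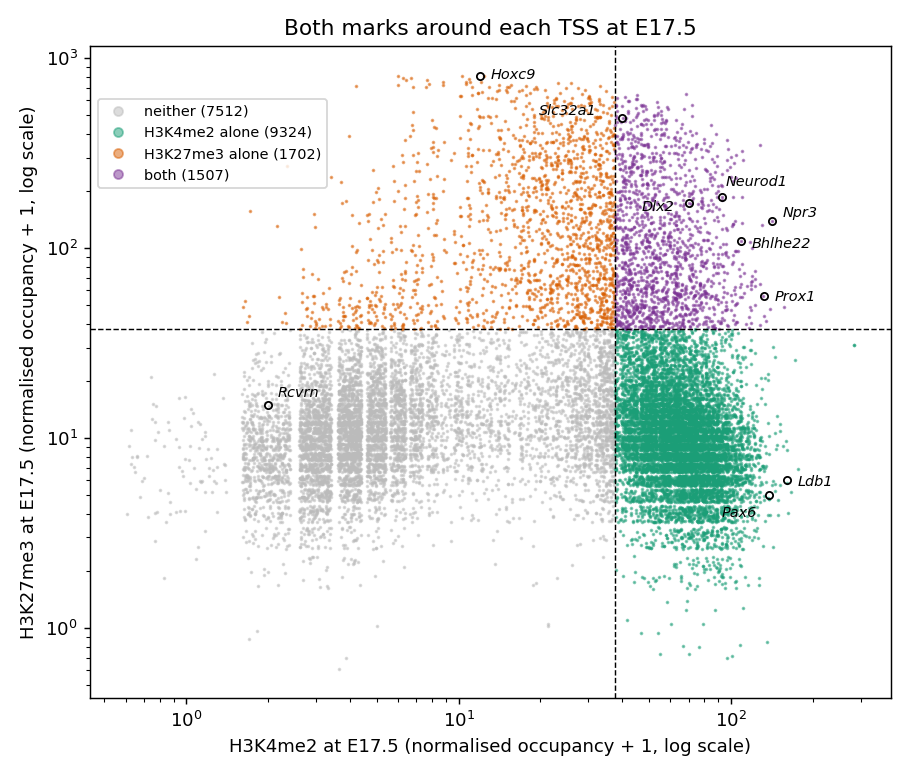
Normalised occupancy of H3K4me2 (x axis) and H3K27me3 (y axis) at E17.5 for 20045 genes, each plus 1 on log axes, with points displaced slightly at random for visibility. Dashed lines stand at the occupancy value of 36.48, and the 1507 genes with both marks fill the upper right, from Slc32a1 (39 and 481) beside the line to Npr3 (141 and 138) far from it.

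The genes with the most of both marks, ranked by the smaller of both deposited values, an order that holds on these scales only, were Npr3, Nr4a2, Sfi1, Icam5, Ccnd2, Kctd1, Onecut2, Bhlhe22, Zadh2 and Bdnf. Npr3, the natriuretic peptide clearance receptor, had 141 (interval 119 to 166) for H3K4me2 and 138 (116 to 163) for H3K27me3. Nr4a2, an orphan nuclear receptor of neurons, had 129 and 131. Onecut2, a factor of horizontal cell formation, had 109 and 184. Bhlhe22, a bHLH factor of amacrine and bipolar subtypes, had 108 for each mark. Ccnd2, a D-type cyclin, had 109 and 322, and Bdnf, a neurotrophin, had 104 and 232. Icam5, a neuronal adhesion molecule, had 110 and 291, Kctd1 had 109 and 135, and Zadh2 had 117 and 107. All 10 genes were clear of the occupancy value in both columns. Sfi1, a centrosomal protein gene, stood apart at birth, since its H3K4me2 rose from 127 to 168 at PN1. That of 1487 of the 1507 genes (98.7%) was lower at PN1 than at E17.5. The anti-GFP library has no values by gene here, so unspecific signal at Sfi1 was not tested. With H3K4me2 alone the highest values belonged to Hjurp and A730008H23Rik (283 and 282), followed by Trp53 (176) and its neighbour Wrap53 (166). With H3K27me3 alone they belonged to Hoxb6 and Hoxc9 (809 each), and 9 of the first 10 were Hox genes, the other being Cdx2 (752), a caudal-type homeobox factor of the trunk and gut.

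The amacrine, horizontal and ganglion cell lists, which hold regulators and effector genes, and the list of proneural factors had most of their members in the class with both marks at the occupancy value used. Genes of amacrine cells, the inhibitory interneurons of the inner retina, had both marks in 15 of 22 cases (68.2%), genes of horizontal cells in 7 of 11 (63.6%), genes of ganglion cells in 11 of 18 (61.1%) and genes of proneural bHLH factors in 9 of 16 (56.2%), against 7.52% of all symbols. At 8 times the anti-GFP mean, where 0.828% of all symbols had both marks, these shares were 18.2%, 9.09%, 11.1% and 31.2%, and at 6 times only the horizontal list was above 50% (54.5%), with 40.9% for amacrine, 33.3% for ganglion and 43.8% for proneural genes, against 2.66% of all symbols. These lists share members, such as Bhlhe22, Ptf1a, Atoh7 and Tcfap2b. All 6 Dlx genes, which encode homeobox factors, had both marks. For Dlx1 to Dlx6, H3K4me2 was 61, 69, 55, 48, 37 and 37 and H3K27me3 was 379, 171, 218, 540, 387 and 446. Dlx1 with Dlx2, Dlx3 with Dlx4 and Dlx5 with Dlx6 are neighbouring pairs. H3K4me2 was thus highest at Dlx1 and Dlx2, and Dlx5 and Dlx6 lay at the lowest value that counts as marked.

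For amacrine cells the marked genes included the transmitter genes Gad1 (54 and 457), Gad2 (100 and 52) and Slc32a1 (39 and 481), which make and load GABA, and the regulators Barhl2 (98 and 266), Ebf3 (73 and 262), Tcfap2a (64 and 378) and Tcfap2b (54 and 297), H3K4me2 being given before H3K27me3. Gad2 differed from Gad1 and Slc32a1 in having more H3K4me2 and far less H3K27me3. The cholinergic genes Chat (29 and 379) and Slc18a3 (32 and 492), which share a locus, and Th (13 and 79), the enzyme of dopamine synthesis, had H3K27me3 alone. Slc6a9, the glycine transporter, was the only amacrine gene with H3K4me2 alone (49 and 14), and the neuropeptide gene Vip had neither.

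For ganglion cells both marks were found at the POU factors Pou4f1 (43 and 335) and Pou4f2 (64 and 365), at Isl1 (44 and 316), Eomes (79 and 376), Tbr1 (41 and 377) and Ebf1 (69 and 187), and at the neurofilament genes Nefl (59 and 272) and Nefm (96 and 124). Pou4f3 (31 and 482) and Nefh (26 and 457) lacked H3K4me2. Gap43, a growth cone protein, had H3K4me2 alone (78 and 23). Sncg (13 and 8) and Opn4 (15 and 18), which mark ganglion cells and their photosensitive subset, had neither. Horizontal cell genes with both marks were Prox1 (131 and 55), Onecut1 (71 and 240), Onecut2, Lhx1 (71 and 564), Ptf1a (58 and 315), Sall3 (55 and 320) and Tcfap2b. The effector genes Calb1, Gja10 and Gjd2 had H3K27me3 alone, and Foxn4, a progenitor factor for amacrine and horizontal cells, had H3K4me2 alone (118 and 28).

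Among proneural bHLH factors, which start neuronal differentiation, Atoh7 (63 and 97) of the ganglion cell lineage, Neurod1 (92 and 186) of photoreceptors, Neurog2 (91 and 101) and Olig2 (80 and 329) had both marks. Atoh1 (77 and 333), Neurog1 (43 and 395) and Olig1 (54 and 528) did as well. Neurod2 (31 and 487), Neurog3 (13 and 606), Olig3 (21 and 553) and Bhlhe23 (11 and 540), a factor of rod bipolar cells, had H3K27me3 alone.

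The retinal progenitor list held both marks at a higher share than all symbols, and the photoreceptor lists at a share near it. Of 18 retinal progenitor genes, 14 had H3K4me2 alone (77.8%, against 46.5% of all symbols), and the 4 with both marks (22.2%, against 7.52%) were Ccnd1 (118 and 71), Nr2e1 (118 and 65), Sox9 (118 and 39) and Zic1 (79 and 143). Of 14 Mueller glia genes, 10 had H3K4me2 alone (71.4%), and Sox9 was the only one with both (7.14%). Of 23 rod genes, 16 had neither mark (69.6%, against 37.5% of all symbols), 4 had H3K27me3 alone and 2 had H3K4me2 alone, and the only one with both (4.35%) was Gucy2e, the photoreceptor guanylate cyclase (42 and 72). Of 12 cone genes 1 (8.33%) had both, Rxrg, the retinoid X receptor gamma of cones (51 and 37), at the edge of the class for H3K27me3. With 1 member each, the shares of the Mueller glia, rod and cone lists are no result about them. Bipolar cell genes were divided, with 5 of 15 (33.3%) having both marks (Grik1, Irx5, Irx6, Isl1 and Prkca) and 6 having H3K27me3 alone, among them Grm6 (30 and 451), the glutamate receptor of ON bipolar cells, and Vsx1 (27 and 378).

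**Figure D2:**
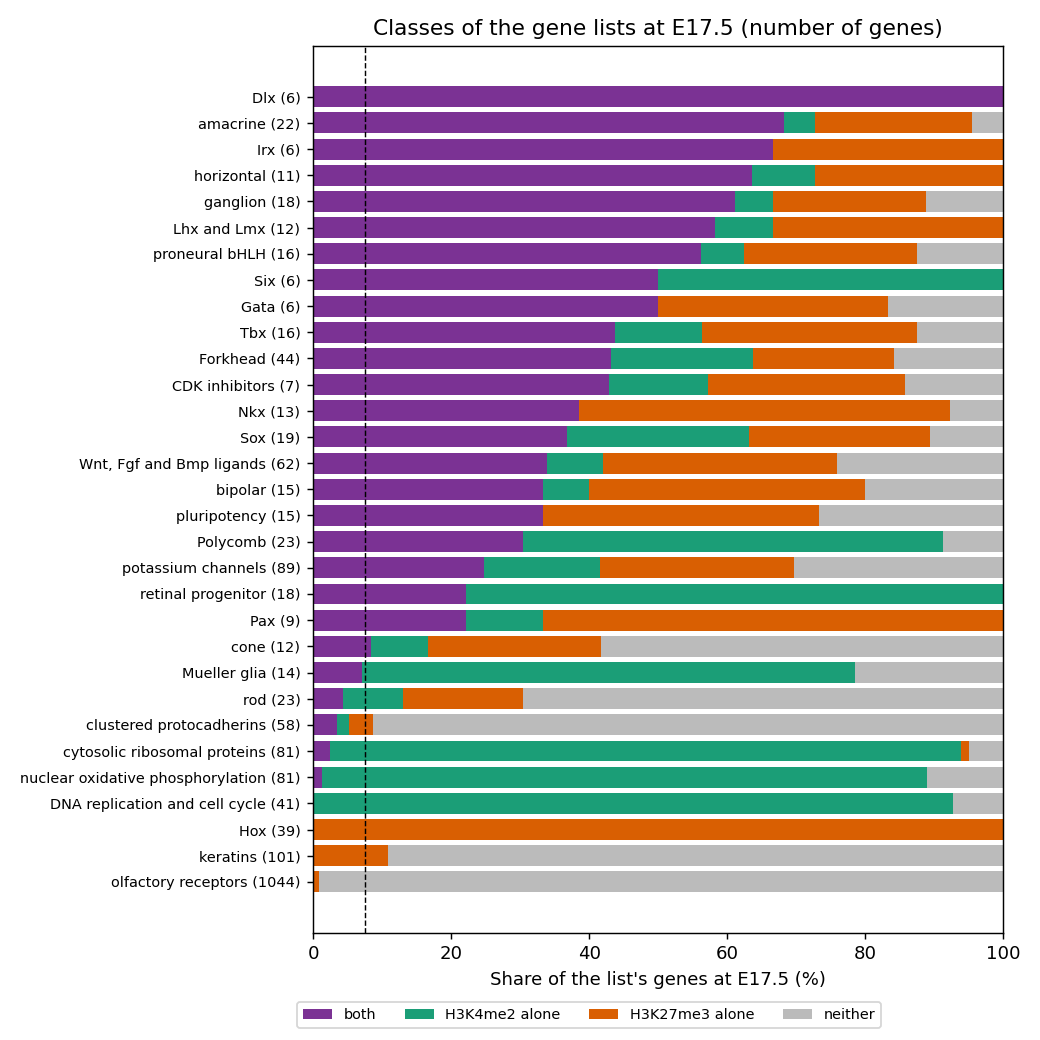
Share of the genes of each list in each class at E17.5, in percent, with the number of genes in brackets and lists ordered by the share with both marks. The dashed line is the share of all symbols with both marks (7.52%), which inner retinal lists and most homeobox families exceed and which housekeeping lists and Hox genes do not reach.

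Other families of developmental factors differed in how many of their genes had both marks. Both marks were found at 19 of 44 Forkhead genes (43.2%), 7 of 12 Lhx, Lmx and Isl genes (58.3%), 4 of 6 Irx genes (66.7%), 7 of 16 T-box genes (43.8%), 7 of 19 Sox genes (36.8%), 5 of 13 Nkx genes (38.5%) and 3 of 6 Gata genes, against 7.52% of all symbols. At 6 times the anti-GFP mean, where 2.66% of all symbols had both marks, these counts were 6 Forkhead, 5 Lhx, Lmx and Isl, 3 Irx, 1 T-box, 2 Sox, 0 Nkx and 3 Gata genes. Of 9 Pax genes, Pax2 (49 and 472) of the optic stalk and Pax9 (67 and 649) had both, and the 6 with H3K27me3 alone included Pax3 (34 and 670), close to the edge, and Pax7 (23 and 655). Six2 (47 and 558) and Six4 (62 and 89) had both marks, whereas Six3, Six5 and Six6 had H3K4me2 alone. All 39 Hox genes, which pattern the trunk and are not expressed in the eye field, had H3K27me3 alone, with H3K4me2 between 3 and 32 and H3K27me3 between 464 and 809. The highest H3K27me3 among the Dlx genes, 540 at Dlx4, lay within the range of the Hox genes.

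Secreted ligands and channels also contributed. Of 62 Wnt, Fgf, Bmp and Gdf genes, 21 had both marks (33.9%, against 7.52% of all symbols) and 21 had H3K27me3 alone (33.9%, against 8.49%). At 6 times the anti-GFP mean 10 of them had both (16.1%, against 2.66%). Wnt5a (93 and 61) and Fgf11 (118 and 60) were among those with the most H3K4me2, and Fgf8 (38 and 424) and Wnt7a (41 and 335) were near the edge for that mark. Of 89 potassium channel genes, 22 had both marks (24.7%, against 7.52% of all symbols, and 7.87% against 2.66% at 6 times the anti-GFP mean), among them Kcna1 (101 and 225), a delayed rectifier, and Kcnj2 (90 and 64), an inward rectifier. Of 23 Polycomb genes, 7 had both marks (30.4%, against 7.52% of all symbols, and 21.7% against 2.66% at 6 times the anti-GFP mean), among them Bmi1 (61 and 124), Cbx2 (76 and 63), Cbx7 (40 and 127), Cbx8 (83 and 178) and Pcgf1 (60 and 94) of the Polycomb repressive complex 1 and Phf19 (37 and 70), an accessory protein of the repressive complex 2. Its core genes Ezh2, Eed and Suz12 had H3K4me2 alone, at 86, 112 and 83. Of 7 CDK inhibitor genes 3 (42.9%, against 7.52% of all symbols) had both marks, Cdkn1a (82 and 48), Cdkn2b (37 and 296) and Cdkn2c (103 and 61), and 1 did at 6 times the anti-GFP mean. Of the others, Cdkn1c (21 and 57) and Cdkn2a (14 and 358) had H3K27me3 alone, Cdkn1b (97 and 10) had H3K4me2 alone and Cdkn2d (32 and 12) had neither. Of 15 pluripotency genes 5 (33.3%, against 7.52% of all symbols) had both, Esrrb (50 and 317), Klf4 (87 and 114), Lin28a (37 and 226), Lin28b (67 and 95) and Tbx3 (107 and 54), and 2 did at 6 times the anti-GFP mean. In this list Pou5f1 (15 and 76) and Nanog (2 and 47) were among 6 genes with H3K27me3 alone.

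Housekeeping genes and large receptor families held both marks at a lower share than the 7.52% of all symbols. Of 81 genes of cytosolic ribosomal proteins, 74 had H3K4me2 alone (91.4%, against 46.5% of all symbols) and 2 had both marks (2.47%), Rpl26 (54 and 53) and Rpl38 (63 and 43). Of 81 nuclear genes of oxidative phosphorylation, 71 had H3K4me2 alone (87.7%) and Atp5k (52 and 44) had both (1.23% of the list). Of 41 DNA replication and cell cycle genes, 38 had H3K4me2 alone (92.7%) and 0 had both. Of 1044 olfactory receptor genes, 1035 had neither mark (99.1%, against 37.5% of all symbols) and 9 had H3K27me3 alone, and neither mark was found at 295 of 296 vomeronasal receptor genes (99.7%), 90 of 101 keratin genes (89.1%), 56 of 57 defensin genes (98.2%), 28 of 34 interleukin genes (82.4%) and 53 of 58 clustered protocadherin genes (91.4%). Pcdhac2 (56 and 159) and Pcdhgc3 (89 and 37) were the protocadherins with both marks (3.45%).

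CpG content differed between the classes, with wide overlap. The observed over expected CpG ratio of the 300 bases around the annotated TSS was computed from mm9 for 1488 of the 1507 genes (98.7%), and its median was 0.69 (quartiles 0.52 and 0.85) for genes with both marks, 0.80 (0.64 and 0.93) for H3K4me2 alone, 0.50 (0.29 and 0.72) for H3K27me3 alone and 0.22 (0.10 and 0.38) for neither. Promoters with a ratio of at least 0.6 and a GC share of at least 50% made up 62.5% of the genes with both marks, 74.1% with H3K4me2 alone, 37.3% with H3K27me3 alone and 10.1% with neither. Over the whole 5 kb window from which occupancy was summed the order of the first and second class turned, with a median ratio of 0.47 for genes with both marks and 0.44 for those with H3K4me2 alone. The share of genes with both marks was 1.48% below a ratio of 0.2, 11.9% between 0.4 and 0.6, and 6.07% at 1.0 or more, whereas the share with H3K4me2 alone rose over these bins from 7.24% to 42.1% and 85.2%. Single genes varied. Among the stretches printed above, that of Hoxc9, which lacked H3K4me2, had a ratio of 0.86 and that of Neurod1 had 0.67.

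**Figure D3:**
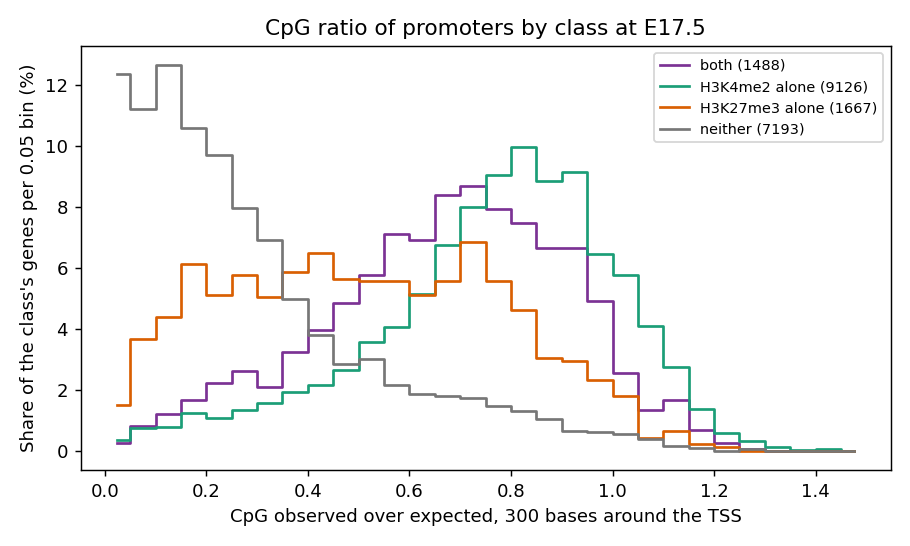
Distribution of the CpG observed over expected ratio in 300 bases around the TSS, as the percent of each class per bin of 0.05, with the number of matched genes in brackets. Genes with both marks (median 0.69) lie between those with H3K4me2 alone (0.80) and those with H3K27me3 alone (0.50), and genes with neither are at the left (0.22).

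Neighbouring windows and alternative starts touched part of the class. The TSS of 161 of the 1488 genes with both marks (10.8%) lay within 5 kb of that of another gene of the table, so that their windows share reads, against 25.4% for H3K4me2 alone. Of the genes with both marks, 313 had several entries, and in 112 of these the entries fell into different classes, with an entry of H3K4me2 alone in 40, of H3K27me3 alone in 14 and of neither in 67. On the autosomes between 6.23% and 10.4% of the genes had both marks, and on chromosome X 22 of 807 genes (2.73%), where 72.0% had neither.

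The E17.5 columns alone set the class of a gene, but the later columns entered the sum that chose 1 entry for the 313 genes with several entries, and choosing that entry by the E17.5 columns alone gave 1506 genes with both marks. At PN1, 655 of the 1507 genes (43.5%) still had both marks and 790 (52.4%) had H3K27me3 alone. At PN7, 926 (61.4%) had both, 373 (24.8%) had H3K27me3 alone and 152 (10.1%) had H3K4me2 alone. At PN15, 634 (42.1%) had both, 452 (30.0%) had H3K27me3 alone, 385 (25.5%) had H3K4me2 alone and 36 (2.39%) had neither. Of all symbols, both marks were found at 4.09% at PN1, 6.87% at PN7 and 5.23% at PN15, H3K4me2 alone at 33.2%, 25.4% and 47.8%, H3K27me3 alone at 13.2%, 10.2% and 10.5%, and neither at 49.5%, 57.5% and 36.5%. The genes in common with E17.5 made up 80.0%, 67.2% and 60.4% of those with both marks at the later stages. The shares at PN1 and PN7 changed when the libraries were rescaled. The median log2 change of H3K4me2 (of value plus 1) from E17.5 to PN1 was -0.64 at the genes with both marks. At all genes with H3K4me2 it was -0.55. To PN7 the medians were -0.14 and -0.65. With each later library rescaled to the median of E17.5, the share with both marks was 84.4% at PN1 and 83.8% at PN7. Rescaling multiplied the background as well. Genes with neither mark at E17.5 had a median H3K4me2 of 4, 6 and 0 at E17.5, PN1 and PN7. The rescaled shares are therefore not like for like, and the part of scale in the shares was not tested. Over all symbols the median H3K4me2 of 41 at E17.5 compares with 27, 24 and 42 in the later libraries in order of age, and rescaling moved no share at PN15 by over 1.5 times. PN7 thus had the lower median but the larger share with both marks as deposited, and the cause of the low count at PN1 was not tested.

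**Figure D4:**
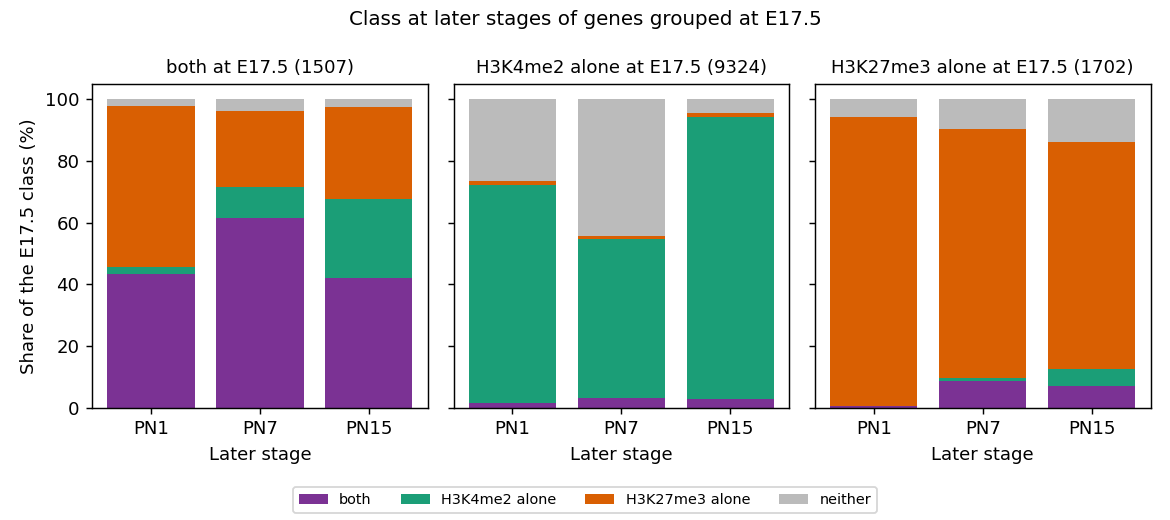
Class at each postnatal stage of the genes that had both marks, H3K4me2 alone or H3K27me3 alone at E17.5, as the percent of each E17.5 class, with the number of genes in brackets. By PN15, 25.5% of the genes with both marks had H3K4me2 alone and 30.0% had H3K27me3 alone, and 73.6% of the genes with H3K27me3 alone at E17.5 were still in that class.

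E17.5 levels differed between the later classes. The genes that had H3K4me2 alone at PN15 had a median H3K27me3 of 55 at E17.5 (quartiles 44 and 81), those that had H3K27me3 alone had 163 (77 and 322), and those that kept both had 101 (60 and 193). Their median H3K4me2 at E17.5 was 58, 47 and 59. Genes nearer to the occupancy value need a smaller change to cross it, and the part of this in the differences was not tested. The median CpG ratio was 0.72 for those with H3K4me2 alone at PN15, 0.64 for those with H3K27me3 alone and 0.72 for those with both. The most frequent course was both marks at all 4 stages, with 295 genes (19.6%), and 212 genes (14.1%) had H3K27me3 alone at PN1, PN7 and PN15.

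The lists differed in how many genes with both marks had H3K27me3 alone at PN15, which was 30.0% over all 1507 genes. This was so for 11 of the 15 amacrine genes, 8 of the 11 ganglion cell genes, 5 of the 9 proneural bHLH genes, 3 of the 7 horizontal cell genes and 2 of the 5 bipolar cell genes. Among factor families it was so for all 6 Dlx genes, all 7 T-box genes and all 5 Nkx genes. The same held for 3 of the 7 Sox genes, 2 of the 4 Irx genes and 1 of the 3 Gata genes. Both marks were kept by 4 horizontal cell, 3 Sox, 2 Irx and 2 Gata genes. Some of these genes lay close to the occupancy value for H3K4me2. No Nkx gene was above 47 at E17.5, Dlx5 and Dlx6 began at 37, and Tbx3 ended at 36. H3K27me3 alone was also found at 5 of the 7 Lhx, Lmx and Isl genes, 10 of the 19 Forkhead genes, 11 of the 21 ligand genes and both Pax genes, and Six2 had it while Six4 kept both marks. H3K27me3 alone was found at 2 of the 5 pluripotency genes, 7 of the 22 potassium channel genes and 1 of the 3 CDK inhibitor genes. It was found at 1 of the 7 Polycomb genes and 0 of the 4 retinal progenitor genes, all 4 of which kept both marks. Of these 4, Nr2e1 ended at 37 for H3K4me2, the smallest whole value inside. In the whole list of 18 progenitor genes, 10, 13 and 12 had both marks at PN1, PN7 and PN15. From E17.5 to PN15 Dlx2 went through 69, 45, 76 and 29 for H3K4me2 and 171, 322, 266 and 203 for H3K27me3. Pou4f2 went through 64, 43, 62 and 20 for H3K4me2 and 365, 507, 412 and 223 for H3K27me3. H3K27me3 thus fell as well by PN15 at Pou4f2 but stayed far above the occupancy value. The genes kept in the class at PN15 included Onecut1 (42 and 171), Onecut2 (67 and 206), Prox1 (82 and 108) and Nefm (87 and 82).

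Neurod1, Gucy2e and Prkca were among the genes that had H3K4me2 alone at PN15. At Neurod1 H3K27me3 was 186, 230, 58 and 24 over the 4 stages, with H3K4me2 at 92, 52, 47 and 113. The values of Gucy2e were 72, 108, 34 and 17 for H3K27me3 and 42, 26, 38 and 91 for H3K4me2. Prkca, the protein kinase C of rod bipolar cells, started at the edge for H3K27me3 with 38, 26, 15 and 13, while H3K4me2 was 63, 47, 77 and 154. H3K4me2 ended higher than it began at all 3 genes. Otx2 had both marks at PN15, after H3K27me3 alone at PN7, with H3K27me3 at 212, 289, 130 and 46 and H3K4me2 at 73, 58, 33 and 140. Bmi1, Cbx2 and Pcgf1 had H3K4me2 alone at PN15 with H3K27me3 of 17, 25 and 35, as had Cdkn2c with 5. Atoh7, whose expression ends with ganglion cell formation, had neither mark at PN15 (33 and 24).

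The largest changes from E17.5 to PN15 were taken on the log2 scale of value plus 1. Large falls of H3K27me3 were found at Pura, a single-strand nucleic acid binding protein of neurons (135 to 6, a fall of -4.28), Yif1a, a transport protein of the Golgi (88 to 4, -4.15), Gdap1l1 (107 to 6, -3.95) and Ppp3cc, a calcineurin subunit (99 to 6, -3.84). These 4 genes had H3K4me2 alone at PN15, and H3K4me2 was higher there than at E17.5 in each, with a rise from 59 to 141 at Ppp3cc. For all genes with both marks the median change of H3K27me3 was -0.84, against -0.90 for all genes with H3K27me3 at E17.5, and 1260 of them (83.6%) were lower at PN15. Both sets were chosen for reaching the occupancy value at E17.5, which by itself favours a fall.

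H3K27me3 rose most at Tbx3, a T-box factor of dorsal retina (54 to 209, a rise of 1.93), Camk2n2, an inhibitor of calmodulin kinase (40 to 136, 1.74), Sox9 (39 to 132, 1.73), Jub, a LIM protein (38 to 122, 1.66), and Gfra1, a receptor of glial neurotrophic factor (40 to 117, 1.53). Tbx3 started clear above the occupancy value for H3K27me3 and the other 4 close to it, and H3K4me2 at E17.5 was between 91 and 134. The values rose at each later stage at Tbx3, Sox9, Jub and Gfra1, and H3K4me2 at PN15 was 36 at Tbx3 and 48 at Sox9. Nr2e1, the progenitor nuclear receptor, also ended with more H3K27me3 and less H3K4me2, going from 65 through 169 and 162 to 184 for H3K27me3 and from 118 through 82 and 125 to 37 for H3K4me2.

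H3K4me2 rose most at Izumo1 (41 to 200, a rise of 2.26), 4930525F21Rik (56 to 261, 2.20), Hr (39 to 165, 2.05), Fam57b (41 to 159, 1.93) and Rtbdn (42 to 162, 1.92). Hr, the corepressor hairless, and Rtbdn, a retina-specific riboflavin binding protein, lost H3K27me3 over the same time (188 to 26 and 254 to 23), as did Fam57b (39 to 5). At Izumo1 and 4930525F21Rik H3K27me3 was 61 and 50 at PN15, and H3K4me2 at PN7 was 2 and 0. Values this low were common in the PN7 library. Its median over genes with neither mark at E17.5 was 0, against 4, 6 and 4 at E17.5, PN1 and PN15. Whether these 2 genes dipped at PN7 was not tested.

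H3K4me2 fell most at H2-Ea (57 to 1), H2-M5 (77 to 3), H2-DMb1 (76 to 4) and H2-DMb2 (79 to 8), all of which belong to the block in which E17.5 values did not follow the symbols. With the values moved their E17.5 H3K4me2 was 5, 7, 3 and 3, and no fall was left for H2-DMb1 or H2-DMb2. Outside these blocks the largest falls were at Pax9 (67 to 8, -2.92), Lhx8 (67 to 9, -2.77), Foxl1 (39 to 5, -2.74) and Emx2 (45 to 6, -2.72), homeobox, paired box and forkhead factors of other tissues or of early patterning. These 4 genes had H3K27me3 alone at PN15, between 227 and 298. The median change of H3K4me2 over the genes with both marks was -0.16, and over all genes with H3K4me2 at E17.5 it was 0.21.

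**Figure D5:**
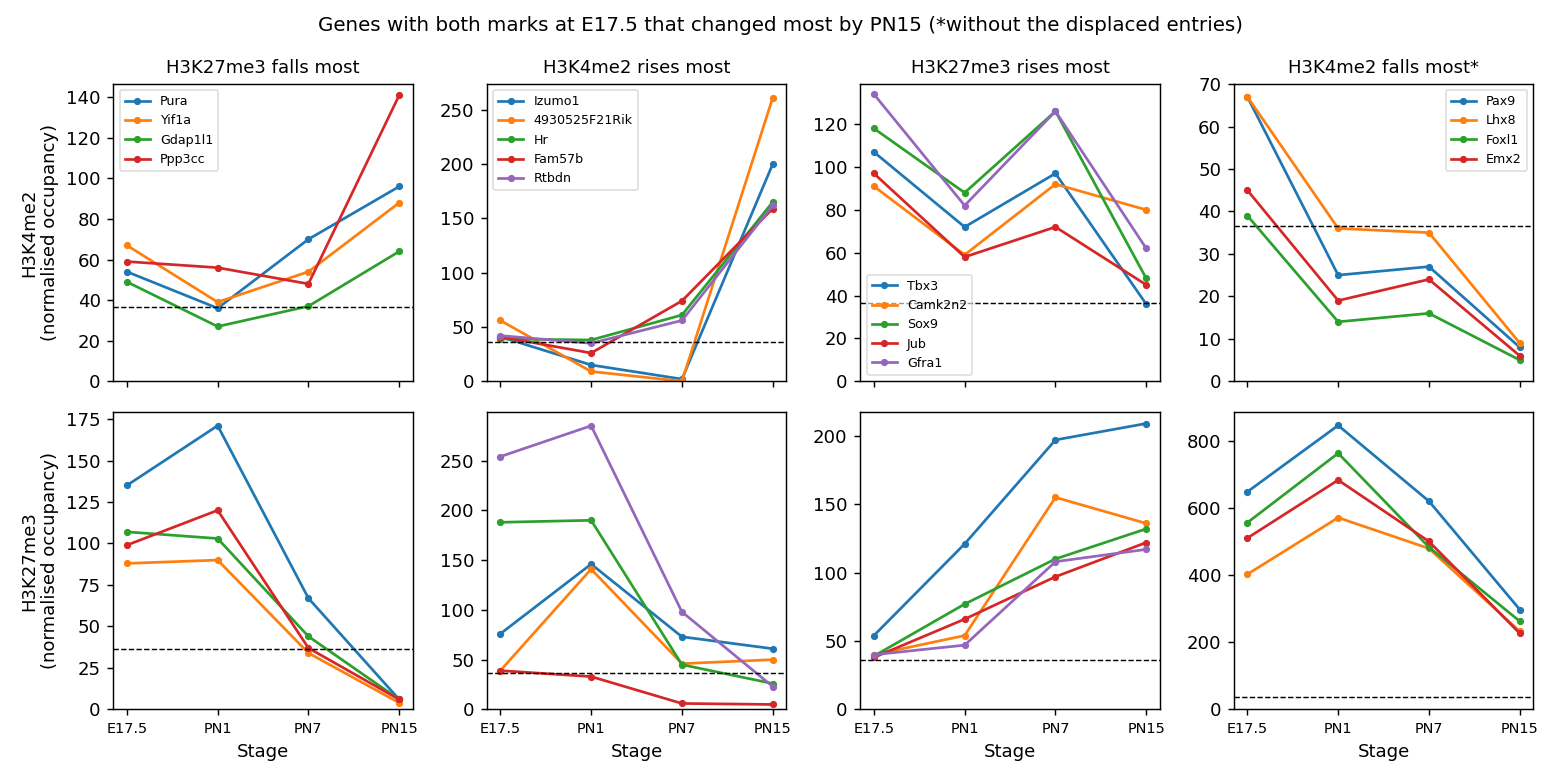
H3K4me2 (upper row) and H3K27me3 (lower row) in normalised occupancy over the 4 stages (x axis) for genes with both marks at E17.5 that changed most to PN15, with 4 genes for each fall and 5 for each rise, with the occupancy value of 36.48 as a dashed line and 1 library behind each point. H3K27me3 falls below the line at all 4 genes of the first column, such as Pura (135 to 6), and H3K4me2 at all 4 of the last, such as Pax9 (67 to 8), from which the displaced entries were left out.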

How the data were processed

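The deposited table holds 25152 entries of 20045 gene symbols in 8 columns, 1 for each mark and stage. The deposited values are scores. The authors mapped reads to mm9 with Bowtie, version 0.12.4 in the submitters' processing notes, removed reads with several positions, summed read midpoints (190 bp fragments) within 2.5 kb of each RefSeq TSS, normalised the sums to all mapped reads and rounded them. They are not counts, and rounding and scaling hide the depth. The authors' anti-GFP and rd1 libraries were not used here, except that the occupancy value rests on the anti-GFP mean of 9.12 given in the study.

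For a symbol with several entries (numbered suffix) the entry with the largest sum over 8 columns was used. Genes were named by a rule, namely members of the lists, the 10 highest of each marked class, and the 5 largest rises and falls of each mark to PN15 among genes with both marks, with falls also given without the displaced entries, and Otx2, which was added outside the rule after its values were seen. Members and lists were chosen with earlier results of these data known. With 1 library for each mark and stage no test was made. CpG ratios were taken from the mm9 genome at GENCODE M1 starts of protein coding transcripts, matched by symbol (19474 symbols, 97.2%), from 250 bases upstream to 50 downstream, and the annotated start may differ from the RefSeq start. Entries in which a date replaced the symbol (25) were counted but not named. Alternatives were other occupancy values, other choices of entry, rescaled later libraries, upstream bases alone, symbols with 1 entry and, chosen after seeing the data, the whole 5 kb window and the displaced values moved back or left out. Classification and realignment were tested on simulated data. Python 3.11.15, numpy 2.4.6, pandas 2.3.3, scipy 1.17.1 and matplotlib 3.10.9 were used. Results of some genes the rule names are not reported here.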

Additional observations from a re-analysis of the deposited data

How the results depend on the processing

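Only 1 library for each mark and stage was used here, so leaving out a replicate was not possible. No paired analysis was possible because the columns carry no replicates. The number of genes with both marks depended on the occupancy value and was 3978, 2458, 533 and 166 at 2, 3, 6 and 8 times the anti-GFP mean, and 753 with the highest 25% of symbols taken for each mark. At 8 times, 3405 genes had H3K4me2 alone and 14640 neither. With the highest 25%, H3K4me2 alone was found at 4361 and H3K27me3 alone at 4324 genes. Taking the mean over entries, each entry on its own, the entry with the largest E17.5 sum, or the displaced values moved back or left out kept all 4 counts within 1.5 times.

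Of the later classes, the share with both marks at PN1 was 78.4%, 20.3% and 6.63% at 2, 6 and 8 times and 84.4% after rescaling, and that with H3K27me3 alone at PN1 was 14.7% and 89.8% at 2 and 8 times and 13.4% after rescaling. H3K4me2 alone at PN1 was 6.26%, 3.91%, 0.750% and 0% at 2, 3, 6 and 8 times. H3K27me3 alone at PN7 was 16.1% at 2 times and 7.37% after rescaling. At PN15 both marks were found at 23.6% and 16.3% at 6 and 8 times, and H3K27me3 alone at 15.5% and 45.2% at 2 and 8 times. For the gene lists, 261 of the counts per class under other occupancy values moved by over 1.5 times and 379 did not. The Dlx list had both marks at all 6 genes at 2 and 3 times, at 3 genes at 6 times and at 0 at 8 times, and 11 and 3 of the 39 Hox genes had both at 2 and 3 times. Over the whole 5 kb window CpG-rich promoters made up 15.7% of genes with both marks, 6.65% with H3K4me2 alone, 3.06% with H3K27me3 alone, 0.236% with neither and 4.66% of all. The causes of these shifts were not tested. The rounding, the unknown depth and the single libraries limit every value near 36.48.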
